A study of Mus musculus with 125 samples.

Results

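Large-subunit (60S) ribosome assembly factors are the proteins that build the large ribosomal subunit in the nucleolus and travel with it toward the cytoplasm. The 38 genes described here were chosen by function, with earlier results of these data known. Matched by mouse symbol to the rows of a count table of 43421 genes, all 38 passed the filter on low counts. They were read in single mouse 2-cell embryos, 1 RNA library per embryo. Zygotes had been selected at 10 h after fertilization, their second polar body was removed, and the embryos were collected at 34 h.

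The 121 embryos compared fell into 7 groups. In the C57BL/6 x JF1/Ms cross there were 43 embryos scored with 2 pronuclei (2PN), 11 scored with 1 pronucleus (1PN) that the submitters also called 1PN in silico, and 8 scored 1PN but called parthenote in silico. In the reciprocal JF1/Ms x C57BL/6 cross there were 21 2PN embryos, 3 1PN embryos called 1PN in silico and 4 scored 1PN but called parthenote. A further 31 embryos were parthenotes labelled C57BL/6, which thus differ from the hybrid 2PN embryos in strain as well as in origin. The 1PN embryos called parthenote are named uniparental below and the other 1PN embryos biparental. The sources used here do not say how the in silico call was reached, from which strain the oocytes of each cross came, or how parthenotes were obtained. Groups follow the strain label of each embryo, while the protocol text attached to every library names only the C57BL/6 x JF1/Ms cross. JF1/Ms is an inbred strain of Japanese wild-mouse origin, and C57BL/6 is the common laboratory strain.

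The pre-60S particle forms around newly made ribosomal RNA. Early factors fold and modify the RNA, DEAD-box helicases and GTPases drive single steps, the 5S ribonucleoprotein is docked by a dedicated pair of proteins, and the AAA+ ATPase midasin pulls off factors so that the particle can leave the nucleolus. A 1-cell mouse zygote holds nucleolus precursor bodies from the oocyte with little ribosomal RNA synthesis, and transcription from the embryonic genome rises at the 2-cell stage.

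Total counts per library ran from 533116 to 4887190, with a median of 3392240. Levels are given in CPM, each gene's count per 1000000 counts of the library, after TMM scaling, which are shares of a library, so a lower share and a larger amount of other transcripts cannot be told apart. Such shares do not show the amount of RNA per embryo or per cell. Oocyte-derived transcripts (19 of 20 listed genes in the table) and 2-cell stage transcripts (17 of 18) had no gene at a median of 0, while 8 of 11 cumulus and granulosa markers and 7 of 10 sperm and testis markers did. Embryos 1 and 2 of the uniparental group of the JF1/Ms x C57BL/6 cross stood apart, with 28490 and 29529 CPM summed over the oocyte list and 49.6 and 328 CPM over the 2-cell list. Embryos 3 and 7 of that group had 6695 and 5641 CPM of oocyte transcripts and 5987 and 5419 CPM of 2-cell transcripts. Summed cumulus markers in the 4 embryos of that group ran from 0.236 to 3.65 CPM against 10.8 to 107 CPM in its 2PN embryos, and summed sperm markers from 107 to 364 against 36.9 to 960 CPM. In the other uniparental group and in parthenotes both sums overlapped the 2PN range. The mitochondrial share had medians of 7.84% in C57BL/6 x JF1/Ms uniparental embryos and 8.12% in parthenotes against 6.23% in 2PN embryos, and 4.90% against 3.72% in the other cross. The part of these values in the results was not tested. Counts of members and lists in the JF1/Ms x C57BL/6 cross include embryos 1 and 2 unless stated, and the counts without them follow below.

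The 38 factors were lower as a group in embryos called uniparental in both crosses and in parthenotes, and none was higher in any of these comparisons. In the C57BL/6 x JF1/Ms cross, 28 of 38 were lower in uniparental than in 2PN embryos, where 13.2% of the 24380 genes tested were lower and 18.5% higher. In the JF1/Ms x C57BL/6 cross, 34 of 38 were lower against 20.1% of all genes lower and 14.7% higher. In parthenotes, 32 of 38 were lower against 21.8% of all genes lower and 29.1% higher. The calls are edgeR quasi-likelihood tests with a Benjamini-Hochberg adjusted p under 0.05, and the count of members higher was 0 in each. DESeq2 called 0, 0 and 1 member higher in the same order, limma voom called 0 in each, and the gene with that single call was Rrs1. In parthenotes DESeq2 called 27.9% of all genes higher. With DESeq2, 8, 2 and 6 of the members called lower lost that call in the same order. Of all genes, DESeq2 called 8.98%, 19.5% and 15.4% lower. With limma voom 2, 2 and 1 members lost the call, and 1 and 2 others gained it in the 2 crosses. Limma voom called 13.1%, 21.1% and 20.9% of all genes lower. The count of 28 was 18 with the earlier edgeR dispersion estimate, beside 10.2% of all genes lower and 12.1% higher. That estimate called fewer unchanged genes on data simulated for this comparison with its own spread. The count was 17 with scaling by total counts (9.09% of all genes lower and 24.6% higher). It was 16 with only the embryos of the first consecutive run of sample records (10.4% and 13.3%). The median log2 fold change of the members was -0.89, -3.04 and -0.86 in the same order, beside medians over all genes of 0.19, -0.64 and 0.18. The parthenote and the C57BL/6 x JF1/Ms uniparental comparisons share their 43 control embryos, so their values stand side by side without a test of their likeness.

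Summed over the 38 genes, the level in C57BL/6 x JF1/Ms 2PN embryos ran from 4615 to 15228 CPM with a median of 9501. The 8 uniparental embryos of that cross ran from 2585 to 11008 CPM with a median of 4256, and 7 of 8 lay below the 2PN median, 4 of them below every 2PN embryo. Embryo 14 was the exception at 11008 CPM. The 31 parthenotes ran from 1965 to 8804 CPM with a median of 5481, and 31 of 31 lay below the 2PN median. In the other cross the 2PN embryos were wider, from 1093 to 13758 CPM with a median of 8339. Its 4 uniparental embryos had 559, 796, 2127 and 924 CPM for embryos 1, 2, 3 and 7. All 4 lay below the 2PN median and 3 below every 2PN embryo, while 2 of the 21 2PN embryos lay at or below embryo 3. The sums weigh genes with many counts most heavily, so the genes are described one by one below.

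**Figure D1:**
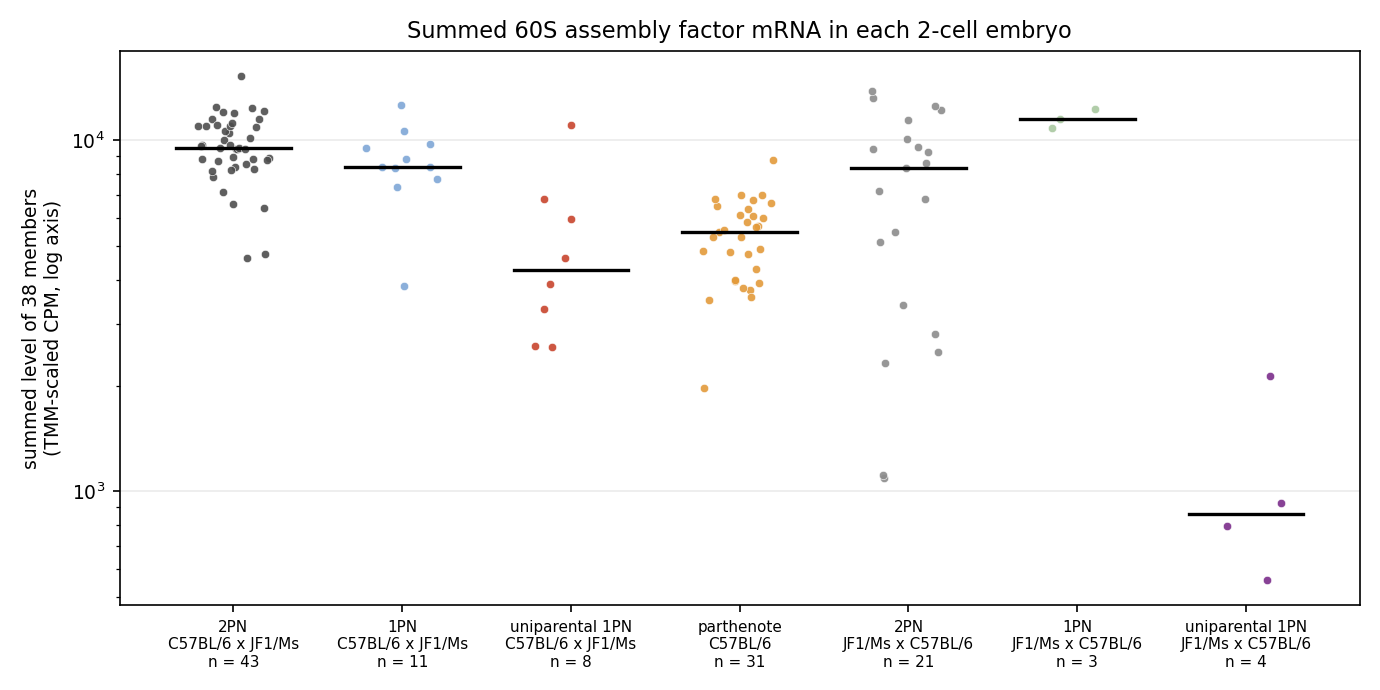
Summed level of the 38 large-subunit assembly factors in each embryo (y axis, TMM-scaled CPM, log axis) by group (x axis), 1 point per embryo with the group median as a bar. Uniparental embryos of both crosses and parthenotes sit mostly below the 2PN median, with ranges that overlap the 2PN embryos. Their medians are 44.8%, 10.3% and 57.7% of the 2PN median for the C57BL/6 x JF1/Ms cross, the JF1/Ms x C57BL/6 cross and the parthenotes. Biparental 1PN embryos overlap the 2PN embryos.

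Ranked by the mean of their log2 fold changes in both crosses, the members with the deepest falls were Nop16, Ddx56, Rpf2, Ftsj3, Mdn1 and Rrp1. Nop16 encodes a nucleolar protein of early pre-60S particles. It had 149, 582 and 978 CPM (lowest, median and highest) in C57BL/6 x JF1/Ms 2PN embryos and 8.52, 194 and 267 CPM in the uniparental embryos. All 8 uniparental embryos lay below the 2PN median and 3 below every 2PN embryo (log2 fold change -1.81 ± 0.37 SE, edgeR adjusted p = 9e-05). In the other cross the 2PN embryos had 16.8, 707 and 1290 CPM and the 4 uniparental embryos 0, 0, 30.9 and 2.74 CPM. Embryo 3 was the highest of the 4 and the only one above the lowest 2PN embryo (-6.67 ± 0.80, adjusted p = 4.1e-11). In the 4 embryos, 3 counts were worth 0.709, 0.906, 1.93 and 2.74 CPM, so a value of 0 places the gene at or under that level.

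Rpf2, which with Rrs1 brings the 5S ribonucleoprotein to the pre-60S particle, had the lowest share of the control median among the 38 in C57BL/6 x JF1/Ms uniparental embryos and in parthenotes. Its median of 0 in the other cross was shared with Ddx56, Gnl2 and Gnl3l. The C57BL/6 x JF1/Ms 2PN embryos had 100, 430 and 771 CPM, the uniparental embryos 30.3, 70.5 and 211 CPM and the parthenotes 19.9, 64.5 and 200 CPM. In these, 6 of 8 uniparental embryos and 24 of 31 parthenotes lay below every 2PN embryo, and the group medians were 16.4% and 15.01% of the 2PN median. The log2 fold changes were -2.23 ± 0.42 (edgeR adjusted p = 2.2e-05) and -2.57 ± 0.24 (adjusted p = 1.1e-17). In the JF1/Ms x C57BL/6 cross the 2PN embryos had 3.05, 490 and 797 CPM and the uniparental embryos 0, 0, 45.7 and 0 CPM (-5.37 ± 0.80, adjusted p = 5.7e-08). Its partner Rrs1 was among the least changed members. Rrs1 had 16.8, 60.6 and 115 CPM in the C57BL/6 x JF1/Ms 2PN embryos, 12.8, 54.8 and 121 CPM in the uniparental embryos (-0.24 ± 0.29, adjusted p = 0.55) and 10.4, 75.4 and 153 CPM in parthenotes (0.34 ± 0.17, adjusted p = 0.093). In the other cross the 4 uniparental embryos had 7.09, 0, 56.0 and 45.7 CPM. Embryos 1 and 2 were the lowest of the 4, and only embryo 2 lay outside the 2PN range of 2.44 to 127 CPM. The fall called there (-1.31 ± 0.50, adjusted p = 0.032) was -0.11 with an adjusted p of 0.97 without embryos 1 and 2. The 5S ribonucleoprotein itself contains Rpl5 and Rpl11, and both were lower in the 3 comparisons, Rpl5 by -1.20, -1.53 and -0.96 and Rpl11 by -1.02, -2.81 and -1.21 on the log2 scale in the order used above. Without embryos 1 and 2, Rpl5 in the JF1/Ms x C57BL/6 cross had -0.64 with an adjusted p of 0.63, and Rpl11 had -2.20 with an adjusted p of 0.035.

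Among the 5 DEAD-box helicases, which use ATP to remodel RNA, 3 were lower in the C57BL/6 x JF1/Ms uniparental embryos, 5 in those of the other cross and 4 in parthenotes. Without embryos 1 and 2 of the other cross, the 5 became 1, Ddx56. Ddx54 lost its call in 9 of 19 alternative settings in the C57BL/6 x JF1/Ms cross. In parthenotes Ddx54 lost it in 3 of 11 and Ddx55 in 9 of 11. Ddx56 had the deepest fall of the 5 in each comparison. Its 2PN embryos had 20.9, 70.2 and 145 CPM in the C57BL/6 x JF1/Ms cross, where the uniparental embryos had 0, 19.96 and 35.99 CPM (-2.05 ± 0.37, edgeR adjusted p = 9.8e-06). Embryo 10 was the one at 0, where 3 counts are worth 0.947 CPM. In the reciprocal cross 3 of the 4 uniparental embryos were at 0 and embryo 3 had 5.15 CPM, against 4.58, 54.9 and 107 CPM in 2PN embryos (-5.91 ± 0.93, adjusted p = 1.9e-07). The parthenotes, at 7.72, 31.1 and 59.4 CPM, lay wholly below the C57BL/6 x JF1/Ms 2PN median (-1.27 ± 0.20, adjusted p = 3.1e-08). Ddx51, named here after its values were seen, was not called in that cross or in parthenotes (-0.03 ± 0.36, adjusted p = 0.96, and 0.08, adjusted p = 0.79).

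**Figure D2:**
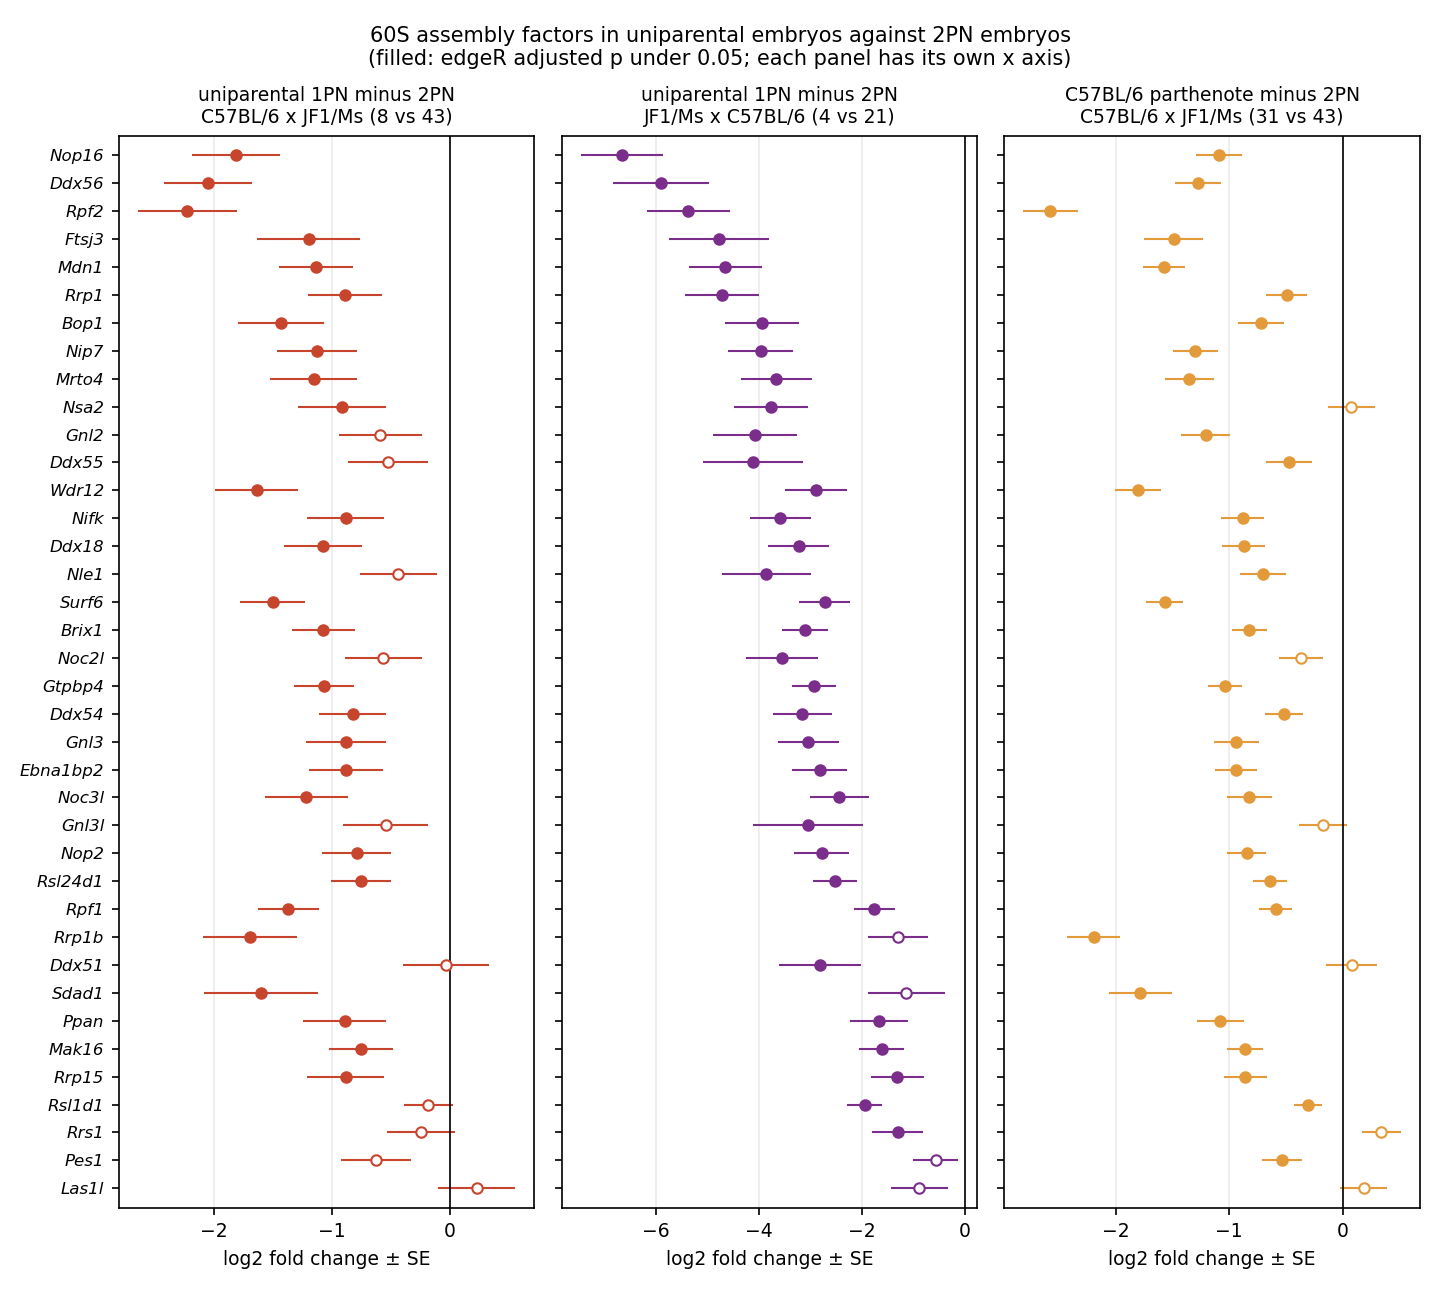
Log2 fold change of each of the 38 members (x axis, bars are standard errors, filled points have an edgeR adjusted p under 0.05), ordered by the mean over both crosses, with a separate x axis per panel. Nop16, Ddx56 and Rpf2 lead the order with -1.81, -2.05 and -2.23 in the C57BL/6 x JF1/Ms cross, and Rsl1d1, Rrs1, Pes1 and Las1l close it.

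Midasin (Mdn1) is the very large ATPase that extracts assembly factors from the particle. Mdn1 had 31.95, 134 and 275 CPM in C57BL/6 x JF1/Ms 2PN embryos, 19.9, 60.6 and 109 CPM in the uniparental embryos (-1.13 ± 0.31, edgeR adjusted p = 0.0032) and 16.5, 44.6 and 79.8 CPM in parthenotes (-1.57 ± 0.18, adjusted p = 1.3e-12). All 8 uniparental embryos and 31 of 31 parthenotes lay below the 2PN median. In the other cross the uniparental embryos had 0, 0, 10.3 and 8.22 CPM against 9.52, 62.0 and 228 CPM in 2PN embryos, so only embryo 3 reached the 2PN range (-4.65 ± 0.71, adjusted p = 1e-07). Midasin acts on the particle through Nle1 and through Wdr12.

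Wdr12 belongs to the PeBoW complex with Pes1 and Bop1, which is needed for processing of the internal spacer of the large-subunit RNA. In uniparental embryos 2 of the 3 subunits were called lower in each cross, and differences between the subunits were not tested. Wdr12 had 45.5, 127 and 302 CPM in C57BL/6 x JF1/Ms 2PN embryos, 5.35, 39.2 and 78.1 CPM in uniparental embryos (-1.64 ± 0.35, edgeR adjusted p = 0.00016) and 8.86, 31.6 and 95.02 CPM in parthenotes (-1.80 ± 0.20, adjusted p = 1.3e-13). Of the parthenotes, 22 of 31 lay below every 2PN embryo. In the reciprocal cross Wdr12 had 0, 9.06, 25.1 and 38.4 CPM against 11.4, 127 and 213 CPM (-2.89 ± 0.60, adjusted p = 5.6e-05), and without embryos 1 and 2 it had -1.73 with an adjusted p of 0.14. Bop1 had 20.2, 74.3 and 142 CPM in C57BL/6 x JF1/Ms 2PN and 2.84, 28.04 and 49.1 CPM in uniparental embryos (-1.43 ± 0.36, adjusted p = 0.0015). Its JF1/Ms x C57BL/6 uniparental embryos had 6.61, 0, 7.72 and 7.305 CPM (-3.94 ± 0.72, adjusted p = 4.8e-06), close to each other apart from embryo 2. Pes1 did not pass the test in either cross. It had 9.24, 33.9 and 63.9 CPM in C57BL/6 x JF1/Ms 2PN and 9.49, 21.4 and 32.8 CPM in uniparental embryos (-0.62 ± 0.30, adjusted p = 0.095). All 8 uniparental embryos lay below the 2PN median, yet none below the lowest 2PN embryo. In the reciprocal cross Pes1 had 26.2, 34.4, 24.4 and 15.5 CPM, inside the 2PN range of 9.76 to 144 CPM (-0.57 ± 0.43, adjusted p = 0.32), and embryos 1 and 2 were the highest of the 4. Parthenotes were lower for Pes1 (-0.53 ± 0.17, adjusted p = 0.0074).

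**Figure D3:**
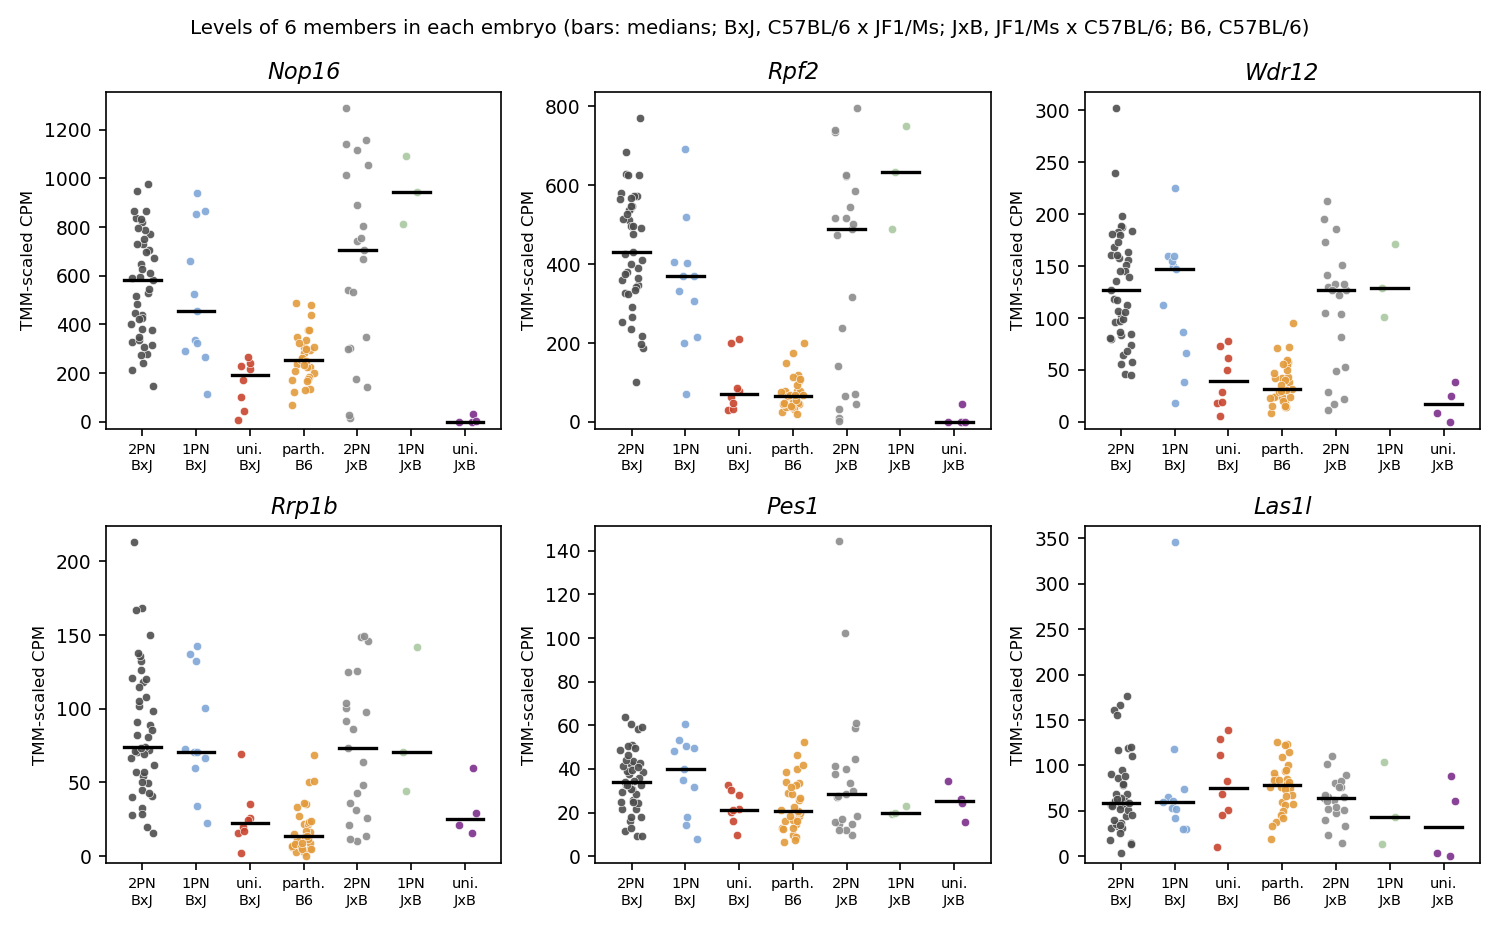
Level of 6 members in each embryo (y axis, TMM-scaled CPM, linear axis with its own range per gene) by group (x axis, uni. is uniparental 1PN, parth. is parthenote), 1 point per embryo with the group median as a bar. Nop16, Rpf2 and Wdr12 are low in uniparental embryos of both crosses and in parthenotes, Rrp1b is lowest in parthenotes with a median of 13.7 CPM against 74.0 CPM in the 2PN embryos, and Pes1 and Las1l overlap the 2PN embryos.

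Of the 3 enzymes that act on ribosomal RNA, 2 were lower in each of the 3 comparisons, and without embryos 1 and 2 the count in the JF1/Ms x C57BL/6 cross was 0. Ftsj3, a methyltransferase of large-subunit RNA, had 3.44, 62.1 and 156 CPM in C57BL/6 x JF1/Ms 2PN embryos and 10.4, 21.9 and 109 CPM in uniparental embryos (-1.19 ± 0.44, edgeR adjusted p = 0.028). Its groups overlapped over most of their range in that cross. The call of Ftsj3 there was lost in 11 of 19 alternative settings, and that of Nop2, the other enzyme called, in 12 of 19. In the reciprocal cross it had 1.18, 0.604, 11.6 and 0 CPM against a 2PN range of 0 to 165 CPM with a median of 68.1 CPM (-4.78 ± 0.97, adjusted p = 3.9e-05), and without embryos 1 and 2 the value was -3.40 with an adjusted p of 0.082. Las1l, part of the endonuclease that cuts the internal spacer, was the one member with a positive change in the C57BL/6 x JF1/Ms uniparental embryos. It had 3.89, 58.2 and 176 CPM in 2PN, 10.1, 75.1 and 139 CPM in uniparental embryos (0.23 ± 0.33, adjusted p = 0.62) and 18.5, 78.2 and 126 CPM in parthenotes (0.18 ± 0.20, adjusted p = 0.47). In the other cross it had 0, 3.02, 88.8 and 61.2 CPM, low in embryos 1 and 2 and near the 2PN median of 64.3 CPM in embryos 3 and 7 (-0.89 ± 0.56, adjusted p = 0.22). None of these differences passed the test.

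The GTPases Gtpbp4, Gnl2, Gnl3 and Gnl3l act as timers of particle maturation. Gtpbp4 had 208, 796 and 1473 CPM in C57BL/6 x JF1/Ms 2PN and 85.9, 321 and 816 CPM in uniparental embryos (-1.06 ± 0.26, edgeR adjusted p = 0.00077), and 9.92, 101, 118 and 37.4 CPM in the uniparental embryos of the reciprocal cross (-2.94 ± 0.43, adjusted p = 2.9e-08). The paralogs Gnl3, known as nucleostemin, and Gnl3l were not called alike in the C57BL/6 x JF1/Ms cross or in parthenotes, but were in the reciprocal cross. Gnl3 was lower in the C57BL/6 x JF1/Ms uniparental embryos, with 35.98, 134 and 305 CPM against 87.1, 245 and 643 CPM (-0.88 ± 0.34, adjusted p = 0.036). Gnl3l, with 0.316, 12.5 and 25.6 CPM against 1.79, 17.01 and 46.1 CPM, did not pass (-0.54 ± 0.36, adjusted p = 0.25). The call of Gnl3 in that cross was lost in 11 of 19 alternative settings. In parthenotes Gnl3 was lower (-0.94) and Gnl3l was not called (-0.18). In the reciprocal cross both were called lower, with -3.04 for Gnl3 and -3.05 for Gnl3l, and neither was called without embryos 1 and 2. The difference between the paralogs was not tested.

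Of the 3 Brix-domain proteins, RNA-binding relatives of Rpf2, all 3 were lower in each of the 3 comparisons. The call of Ppan was lost in 11 of 19 alternative settings in the C57BL/6 x JF1/Ms cross and in 8 of 16 in the other. Rpf1 was the 1 member whose 8 C57BL/6 x JF1/Ms uniparental embryos all lay below every 2PN embryo, with 37.2, 70.3 and 96.6 CPM against 97.9, 171 and 256 CPM (-1.37 ± 0.26, edgeR adjusted p = 2.1e-05). The share of all genes whose groups separate in this way was not counted, so that separation is a description of Rpf1 alone. The parthenotes, at 39.4, 107 and 207 CPM, overlapped the 2PN embryos (-0.59 ± 0.14, adjusted p = 0.00026). In the reciprocal cross Rpf1 had 5.43, 17.8, 82.3 and 37.4 CPM against a 2PN median of 105 CPM (-1.76 ± 0.40, adjusted p = 0.00024), and without embryos 1 and 2 it had -0.81 with an adjusted p of 0.39. Mrto4, which holds the place of the ribosomal stalk protein, fell as well, with 9.2002, 59.1 and 153 CPM against 34.5, 169 and 349 CPM (-1.16 ± 0.37, adjusted p = 0.012). Its reciprocal-cross embryos had 14.6, 9.06, 4.50 and 8.22 CPM, a narrow range with embryos 1 and 2 not the lowest (-3.66 ± 0.69, adjusted p = 1.1e-05). Noc3l, a nucleolar protein of the NOC family, was likewise lowest in embryo 3 rather than in embryos 1 and 2, at 27.9, 35.04, 1.29 and 10.96 CPM (-2.44 ± 0.57, adjusted p = 0.00033).

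The remaining nucleolar factors include Surf6, Rrp1 and Rrp1b. Surf6 had 36.2, 113 and 210 CPM in C57BL/6 x JF1/Ms 2PN, 15.8, 38.1 and 71.7 CPM in uniparental embryos (-1.50 ± 0.28, edgeR adjusted p = 1.5e-05) and 9.67, 37.5 and 73.4 CPM in parthenotes (-1.57 ± 0.16, adjusted p = 1.7e-15). Rrp1 and Rrp1b are paralogs and ranked differently between crosses. Rrp1 had 18.4, 61.2 and 110 CPM in C57BL/6 x JF1/Ms uniparental embryos against 10.3, 116 and 200 CPM (-0.89 ± 0.31, adjusted p = 0.021), and 0, 6.04, 0 and 4.57 CPM against 4.33, 68.2 and 171 CPM in the reciprocal cross (-4.72 ± 0.73, adjusted p = 1.2e-07). The call of Rrp1 in the C57BL/6 x JF1/Ms cross was lost in 8 of 19 alternative settings. In that cross Rrp1b had 2.14, 22.3 and 69.3 CPM against 15.6, 74.0 and 213 CPM (-1.70 ± 0.40, adjusted p = 0.00066). In the reciprocal cross it had 15.8, 21.4, 59.8 and 29.2 CPM against 10.0, 73.5 and 149 CPM (-1.31 ± 0.58, adjusted p = 0.07). Of the parthenotes, 18 of 31 lay below every 2PN embryo for Rrp1b (-2.19 ± 0.24, adjusted p = 2.9e-14). Rsl1d1, a nucleolar protein with a ribosomal L1 domain, was near its control level in the first cross, at 611, 949 and 1789 CPM against 604, 1167 and 1625 CPM (-0.18 ± 0.21, adjusted p = 0.53). It was lower in the reciprocal cross, at 81.2, 233, 342 and 81.3 CPM against 117, 776 and 1356 CPM (-1.95 ± 0.34, adjusted p = 2.4e-06).

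Between the crosses, 26 members were lower in both, and 25 in both and in parthenotes. The share of all genes called lower in both crosses, or in all 3 comparisons, was not counted, so these counts are descriptions. The 8 called lower in the JF1/Ms x C57BL/6 cross alone were Rrs1, Gnl2, Gnl3l, Rsl1d1, Nle1, Noc2l, Ddx51 and Ddx55, the 2 called in the C57BL/6 x JF1/Ms cross alone were Rrp1b and Sdad1, and Pes1 and Las1l were called in neither. A call in 1 cross alone is not a difference between crosses. Without embryos 1 and 2 of the JF1/Ms x C57BL/6 uniparental group, 16 members were lower in that cross, so at most 16 could be shared. Over the 38 members, which share libraries, Pearson's r of the fold changes in both crosses was 0.43 and Spearman's rho 0.29, as a description. Of the 10 deepest falls in each cross, 4 genes were shared, namely Bop1, Ddx56, Nop16 and Rpf2. The difference of the effects was tested as an interaction term, and 25 members fell further in the JF1/Ms x C57BL/6 cross, beside 11.8% of all genes with a more negative and 4.09% with a more positive difference. The 4 with the smallest p were Nop16 (-4.86 ± 0.80, edgeR adjusted p = 2.5e-06), Rrp1 (-3.83 ± 0.78, adjusted p = 0.00018), Rsl1d1 (-1.77 ± 0.38, adjusted p = 0.00042) and Mdn1 (-3.52 ± 0.77, adjusted p = 0.0005). Without embryos 1 and 2 of the JF1/Ms x C57BL/6 uniparental group, 3 members passed (Nop16, Nifk and Brix1), beside 0.873% of all genes with a more negative difference. Without embryo 1 it was 15 members beside 4.80% of all genes, and without embryo 2 it was 16 beside 6.30%.

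The size of the fall in that cross moved with those embryos. Of the 38 members, 14 were at 0 in embryo 1, 9 in embryo 2, 3 in embryo 3 and 7 in embryo 7. The 2PN embryos of that cross had 0 to 5 members at 0. In the same order the 4 embryos had 12412, 16834, 16110 and 15575 genes with any count, against a 2PN range of 13239 to 20095. Their total counts were 3768364, 3521091, 1531882 and 1002294. The part of depth and of genes detected in these zeros was not tested. Without embryos 1 and 2, 16 rather than 34 members were lower than in 2PN embryos and the median log2 fold change was -2.28, while 3.28% of the 26116 genes then tested were lower and 2.86% higher. Those 16 were Bop1, Brix1, Ddx56, Gtpbp4, Mdn1, Mrto4, Nifk, Nip7, Noc3l, Nop16, Nsa2, Ppan, Rpf2, Rrp1, Rsl1d1 and Rsl24d1. Nop16 then had -5.08, Rrp1 -5.01, Ddx56 -4.03, Rpf2 -3.87 and Mdn1 -2.88 on the log2 scale. In the C57BL/6 x JF1/Ms cross, uniparental embryo 10 had 35221 CPM of oocyte transcripts, against a 2PN range of 4248 to 19039 CPM. Without embryo 10 or without embryo 22 the count of 28 members lower became 16, beside 9.45% and 10.1% of all genes lower. Oocyte transcripts over the group ran from 6676 to 35221 CPM with a median of 10881, against a 2PN median of 6391, and 8 of 19 oocyte genes were higher and 1 lower. The 2-cell list ran from 2026 to 4135 CPM against 2823 to 14090 CPM. Parthenotes had oocyte sums of 4790 to 9236 CPM, inside the 2PN range, and their members were lower as well. The part of the oocyte and 2-cell transcripts in the members' falls was not tested.

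**Figure D4:**
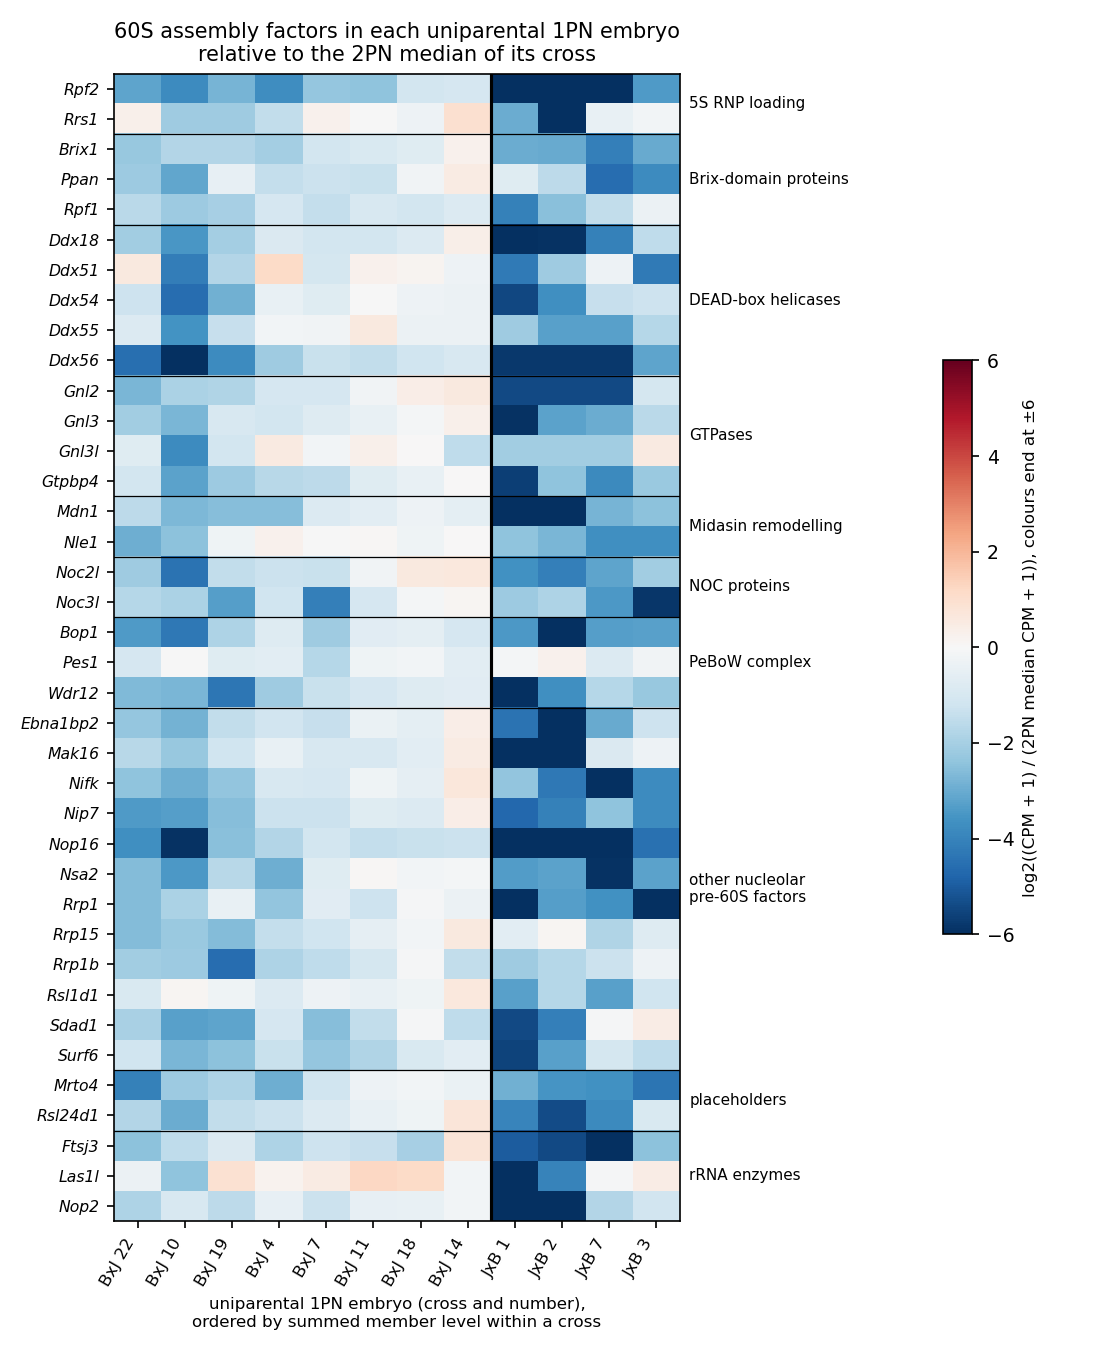
Level of each member (rows, by role) in each uniparental embryo (columns, BxJ is C57BL/6 x JF1/Ms and JxB is JF1/Ms x C57BL/6) as log2 of (CPM + 1) over the 2PN median of its cross (CPM + 1), with colours ending at -6 and 6. Embryo 14 of BxJ is near the control level for most members, and embryos 1 and 2 of JxB are the darkest columns, with 14 and 9 members at 0.

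**Figure D5:**
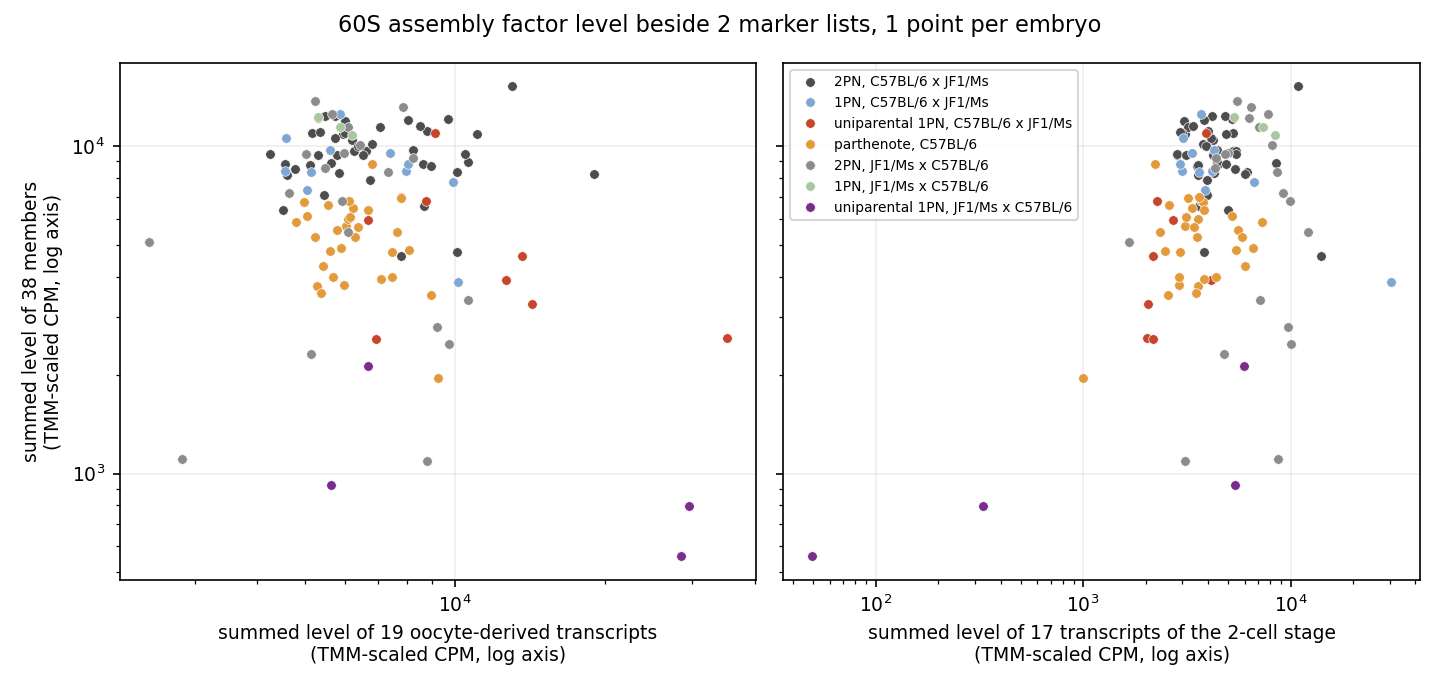
Summed level of the 38 members (y axis, TMM-scaled CPM, log axis) against summed oocyte-derived transcripts (left) and 2-cell stage transcripts (right), 1 point per embryo, log axes. Embryos 1 and 2 of the JF1/Ms x C57BL/6 uniparental group lie apart at 28490 and 29529 CPM of oocyte and 49.6 and 328 CPM of 2-cell transcripts. Parthenotes overlap the 2PN embryos on both x axes and sit lower on the y axis, with some overlap.

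Biparental 1PN embryos, which were scored 1PN and also called 1PN in silico, gave no member lower or higher than 2PN embryos in either cross. In the C57BL/6 x JF1/Ms cross 0 members passed the edgeR test, 0 had an unadjusted p under 0.05, DESeq2 and limma voom called 0, and 0.197% of all genes were higher and 0 lower. Of the 24380 genes tested, 1094 had an unadjusted edgeR p under 0.05. The median log2 fold change was -0.12, and for Nop16 the biparental embryos had 115, 457 and 942 CPM. In the JF1/Ms x C57BL/6 cross 0 members passed, 4 had an unadjusted p under 0.05, DESeq2 and limma voom again called 0, and 0.0082% of all genes were higher. Here 2232 of the 24380 genes had an unadjusted edgeR p under 0.05, a share close to 4 of 38. The 3 embryos had 814, 945 and 1090 CPM of Nop16 and 490, 749 and 635 CPM of Rpf2. Their members had a median log2 fold change of 0.59, and 33 of 38 were above 0, while a group of 3 leaves wide errors. Over all genes the median in that comparison was -0.38, and 62.0% of genes were below 0. A missed threshold does not show that levels were equal.

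Against biparental embryos, which were also scored 1PN, 13 members were lower in C57BL/6 x JF1/Ms uniparental embryos (8.08% of all genes lower and 8.82% higher) and 33 in the other cross (17.5% and 13.5%). The lowest p values in the first of these were for Ddx56 (-1.89, edgeR adjusted p = 0.00059), Surf6 (-1.34, adjusted p = 0.0015) and Rpf2 (-1.92, adjusted p = 0.0018). Without embryo 10 the count was 8, beside 5.04% of all genes lower, and without embryo 14 it was 20, beside 9.83%. Without embryos 1 and 2 the 33 of the other cross became 27, beside 4.82% of all genes lower. Between C57BL/6 x JF1/Ms uniparental embryos and parthenotes, which differ in strain, 0 members passed the edgeR test and 4 had an unadjusted p under 0.05, beside 1.57% of all genes lower and 3.41% higher. DESeq2 called 1 member, beside 0.83% of all genes lower and 1.19% higher, and limma voom called 0. The member nearest to the threshold was Rpf1 at -0.78 ± 0.25 (adjusted p = 0.051), with a 95% interval from -1.27 to -0.28.

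The 2PN embryos themselves differed by cross. Of the 38 members, 16 were lower in JF1/Ms x C57BL/6 than in C57BL/6 x JF1/Ms 2PN embryos and 0 higher, beside 19.2% of all genes lower and 18.8% higher, with a median of -0.36. Cross and any difference in the handling of the crosses cannot be told apart. DESeq2 called 17 members lower and 0 higher, beside 18.5% and 17.5% of all genes. Limma voom called 23 and 0, beside 21.4% and 21%. Rrp15, a nucleolar protein, had 75.0, 213 and 354 CPM in C57BL/6 x JF1/Ms and 5.20, 54.0 and 215 CPM in JF1/Ms x C57BL/6 2PN embryos (-1.25 ± 0.23, edgeR adjusted p = 2.8e-06). Gnl3l had 1.79, 17.01 and 46.1 against 0, 3.21 and 27.04 CPM (-1.40 ± 0.29, adjusted p = 4.1e-05), Rsl1d1 changed by -0.69 ± 0.15 (adjusted p = 5.9e-05) and Mak16, an early pre-60S factor, by -0.86 ± 0.19 (adjusted p = 7.7e-05). Spread between embryos was wider in the JF1/Ms x C57BL/6 2PN group, with a median coefficient of variation of 68.7% over the members against 38.5%.

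Other genes of ribosome production were also lower far more often than higher. Of 28 other 60S assembly and export factors, 19 were lower and 0 higher in C57BL/6 x JF1/Ms uniparental embryos, 24 and 0 in the other cross, and 23 and 0 in parthenotes. Of 43 factors that build the small (40S) subunit, 28 and 0, 36 and 2, and 38 and 1 were lower and higher. Of 37 large-subunit ribosomal proteins tested, 29 and 0, 36 and 0, and 34 and 1 were. The medians of these lists in the C57BL/6 x JF1/Ms cross were -0.95, -0.95 and -0.96, beside -0.89 for the 38 members. They were -2.47, -2.44 and -2.31 beside -3.04 in the JF1/Ms x C57BL/6 cross, and -0.75, -0.93 and -0.86 beside -0.86 in parthenotes. Without embryos 1 and 2 the counts lower in the JF1/Ms x C57BL/6 cross were 12 of 28, 13 of 43 and 9 of 37, with 0 higher in each list. Among the genes named in these lists by p, Tsr1, a late 40S factor, had -3.07, -4.52 and -2.53. Senp3, a SUMO protease of the nucleolus, had -1.15, and Eif6, which keeps the 60S subunit from joining the 40S too early, -0.99 in the C57BL/6 x JF1/Ms cross. In the JF1/Ms x C57BL/6 cross Zfp622 had -4.18, Rbm28 -4.69 and Wdr74 -6.64.

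Promoters of the members were read from RefSeq windows of 300 bases (250 before and 50 after the start) in GRCm38.p6. A window was found for 32 of the 38 genes, and Bop1, Gnl2, Gnl3l, Mak16, Rpf1 and Rrs1 had no entry. The windows of the 3 members with the deepest mean fall and of Las1l, the least changed, are shown 5′ to 3′ on the strand of the gene, with matches in capitals. They lie on the minus strand at chr13:54590025-54590324 for Nop16, chr11:6267680-6267979 for Ddx56, chr10:40246990-40247289 for Rpf2 and chrX:95956854-95957153 for Las1l.
Nop16: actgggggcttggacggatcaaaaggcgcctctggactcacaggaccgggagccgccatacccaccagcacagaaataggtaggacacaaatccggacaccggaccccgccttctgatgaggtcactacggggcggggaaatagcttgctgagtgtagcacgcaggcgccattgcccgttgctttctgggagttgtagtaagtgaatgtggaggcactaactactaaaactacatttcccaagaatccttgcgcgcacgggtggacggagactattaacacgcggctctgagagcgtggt
Ddx56: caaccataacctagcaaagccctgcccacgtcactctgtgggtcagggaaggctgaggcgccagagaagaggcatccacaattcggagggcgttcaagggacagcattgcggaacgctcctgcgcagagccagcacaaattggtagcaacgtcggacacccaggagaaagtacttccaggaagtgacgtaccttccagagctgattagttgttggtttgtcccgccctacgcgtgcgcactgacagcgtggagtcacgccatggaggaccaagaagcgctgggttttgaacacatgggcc
Rpf2: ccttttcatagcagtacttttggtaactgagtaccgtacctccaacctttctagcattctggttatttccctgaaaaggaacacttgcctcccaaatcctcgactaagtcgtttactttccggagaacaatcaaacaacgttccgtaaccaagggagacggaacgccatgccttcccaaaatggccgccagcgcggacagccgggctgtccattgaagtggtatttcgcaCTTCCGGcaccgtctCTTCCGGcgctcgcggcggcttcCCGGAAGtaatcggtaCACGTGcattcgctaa
Las1l: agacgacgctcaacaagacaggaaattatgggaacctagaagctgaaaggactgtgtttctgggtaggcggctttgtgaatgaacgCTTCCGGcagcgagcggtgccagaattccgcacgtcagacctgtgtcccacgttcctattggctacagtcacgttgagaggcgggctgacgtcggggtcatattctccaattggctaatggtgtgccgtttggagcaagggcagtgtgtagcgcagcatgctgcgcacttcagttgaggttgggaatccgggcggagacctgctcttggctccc

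Capitals mark the ETS-type motif CCGGAAG or its reverse complement, and the E-box CACGTG, which reads the same on both strands. Rpf2 had 3 ETS-type matches at -20, -5 and 19 and an E-box at 35, counted from the start, Las1l had 1 ETS-type match at -164, and Nop16 and Ddx56 had none of the motifs searched. Over the 32 windows, 15 (46.9%) held the ETS-type motif against 9.12% of 27025 windows of genes in the table and 11.9% of 17492 protein-coding ones, and 13 of these 15 had a match between -50 and 50. The E-box was in 6 windows (18.8%) against 7.24% and 7.90%. The TATA motif TATAAA was in 3 (9.38%) against 14.2% and 13.3%, the YY1-type motif AAGATGGCG in 1, and the NRF1-type and ZBTB33-type motifs in 0. Both strands were searched and 0 matches to different motifs overlapped. Surf6 held the most ETS-type matches, 4. GC content had a median of 59.3% against 52.7% in all windows and 56.3% in protein-coding ones, and 11 of 32 windows (34.4%) had a second gene starting within 500 bases on the other strand, against 10.1% and 10.9%. Members with the ETS-type motif had a median log2 fold change of -0.88 in the C57BL/6 x JF1/Ms cross and those without it -1.07, and -2.79 and -3.59 in the other cross. A match is a description of the letters and not a site.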

How the data were processed

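RNA from single 2-cell embryos was sequenced with SMART-Seq v4 and Nextera XT libraries, per the labels' protocols. The authors deposited 1 table of estimated counts for 43421 genes in 125 libraries, of which 28.4% of the values above 0 were not whole. HISAT2 2.0.5, featureCounts 2.0.0 and GRCm38 are named in the submitters' processing notes. Annotation release, strand setting and treatment of reads matching several genes were not given in the sources used here. Because this kit does not mark strand and 11 members (Bop1, Ddx54, Ebna1bp2, Ftsj3, Gnl2, Gnl3, Las1l, Mak16, Noc2l, Nsa2 and Wdr12) overlap another protein-coding gene in RefSeq, reads in the overlap cannot be told apart, and paralogs may share reads.

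The 4 libraries labelled dead or low quality were left out of all comparisons. Counts were rounded to whole numbers, and 24380 genes passed filterByExpr. edgeR 4.0.16 (R 4.3.3) fitted 7 group means with TMM factors and the quasi-likelihood test of each contrast, adjusted by Benjamini-Hochberg over all genes tested, with a threshold of 0.05. The standard error is the size of the log2 fold change over the square root of F. The dispersion estimate of edgeR 4 was kept, after both it and the earlier one had been seen, because earlier results of these data had used it. On simulated data for the C57BL/6 x JF1/Ms uniparental comparison it called more unchanged than changed genes. The earlier estimate called fewer unchanged than changed ones and recovered somewhat fewer of the latter. The simulated counts took their spread from the earlier estimate, which may favour it. The count of members called in that comparison is thus uncertain, and not only near the threshold. For the other cross both estimates called similar numbers of each. Alternatives used DESeq2 1.42.0, limma 3.58.1, other scaling factors, no filter, fewer libraries, and embryo numbers as a block. Each library is 1 embryo, and the labels name no litter or day, so p-values measure spread between these embryos only. That spread is estimated over all 7 groups together and need not match that of the uniparental groups. Their median coefficients of variation over the members were 69.2% (C57BL/6 x JF1/Ms) and 103%, against 38.5% and 68.7% in 2PN embryos. With the 2 groups alone in the fit, 5 members lost their call in the JF1/Ms x C57BL/6 cross, beside 22.6% of all genes lower. The lowest chi-square per gene of any pair of libraries was 15.01, so no library was counted as a copy of another.

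The members and the other lists were chosen with earlier results of these data known. Members given in full were the 6 deepest and 4 shallowest mean falls over both crosses, the smallest p of each role, PeBoW and the paralog pairs, and up to 4 by p for contrasts of crosses. Of other lists, up to 3 by p were named. Other members were named after their values were seen. Of the gene identifiers, 43266 matched a symbol.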

Additional observations from a re-analysis of the deposited data

Results flagged for a closer look

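In 10 of 76 tests of a group of 4 to 8 embryos, 1 embryo lay far from the others on the log2(CPM + 1) scale, where chance gives about 1 in 20 for values without ties. In the C57BL/6 x JF1/Ms uniparental group these were Las1l in embryo 10 at 10.1 CPM, Ddx55 in embryo 10 at 0.947 CPM, and Rrp1b in embryo 19 at 2.14 CPM. In the JF1/Ms x C57BL/6 uniparental group embryo 3 was high for Rpf2 at 45.7 CPM, Gnl2 at 19.3 CPM, Gnl3l at 5.15 CPM and Ddx56 at 5.15 CPM. For these 4 genes the other 3 embryos were at 0, so any value above 0 would have stood out and the 1 in 20 does not apply. In the same group Bop1 was low in embryo 2 at 0 CPM, and embryo 7 was low for Brix1 at 63.0 CPM and for Nsa2 at 0.913 CPM.

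The change from 2PN to uniparental embryos differed between crosses for 25 members by the interaction term of the edgeR fit, in each case with a deeper fall in the JF1/Ms x C57BL/6 cross. The differences on the log2 scale were -4.86 for Nop16, -3.85 for Ddx56, -3.83 for Rrp1, -3.59 for Ddx55, -3.59 for Ftsj3, -3.52 for Mdn1, -3.49 for Gnl2 and -3.42 for Nle1. They were -3.15 for Rpf2, -2.99 for Noc2l, -2.85 for Nsa2, -2.84 for Nip7, -2.78 for Ddx51, -2.71 for Nifk, -2.51 for Bop1 and -2.51 for Mrto4. The smallest were -2.33 for Ddx54, -2.16 for Ddx18, -2.16 for Gnl3, -2.04 for Brix1, -1.997 for Nop2, -1.94 for Ebna1bp2, -1.87 for Gtpbp4, -1.77 for Rsl1d1 and -1.77 for Rsl24d1. Instead of 25 members, 3 passed without embryos 1 and 2 of the JF1/Ms x C57BL/6 uniparental group, 15 without embryo 1 and 16 without embryo 2. Of all genes, 0.873%, 4.80% and 6.30% had a more negative difference in the same order, against 11.8% with all embryos.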

How the results depend on the processing

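The 28 members lower in C57BL/6 x JF1/Ms uniparental embryos became 18 with the earlier dispersion estimate (chosen after seeing the data), 16 with only the first consecutive run of sample records, 17 with total counts, and 16 to 29 with 1 uniparental embryo left out (added later, like the omission of embryos 1 and 2). Of all genes, 10.2%, 10.4%, 9.09% and 9.45% to 14% were lower in the same order. In that comparison 16 members stayed lower under all 19 alternatives. The 34 of the other cross ranged from 30 to 35 with 1 embryo left out and fell to 16 without embryos 1 and 2. Of all genes, 12.7% to 21.4% and 3.28% were lower there. Against biparental embryos the 13 became 8 with the first run of records and 8 to 20 with 1 left out, beside 5.59% and 5.04% to 9.83% of all genes. The 25 interaction calls became 15 to 30 with 1 left out and 3 without embryos 1 and 2. Of all genes, 4.80% to 15% and 0.873% had a more negative difference. Embryo numbers do not pair the samples (8 pairs, correlations of deviations from -0.16 to 0.19, 3 best with their own number), and a replicate block gave 17, 5 and 15 for the counts of 28, 13 and 25. With that block 7.88%, 2.88% and 7.18% of all genes were called in the same direction. Parthenotes had 1 member higher (0 before) with DESeq2, RLE factors, total counts and the 2 groups alone, beside 27.9% to 38% of all genes. Uniparental C57BL/6 x JF1/Ms embryos had 1 member lower than parthenotes (0 before) with DESeq2, RLE factors, total counts, no filter, libraries of at least 1000000 counts, the 2 groups alone, and without embryo 11 or 14 (0 to 1). In these settings 0.83% to 2.77% of all genes were lower. Upper-quartile factors gave 1 member higher in JF1/Ms x C57BL/6 2PN embryos, beside 22.6% of all genes.

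Signs changed for members that passed no test. Ddx51 in the C57BL/6 x JF1/Ms cross had 0.17 with DESeq2 and RLE factors, 0.20 with total counts, 0.00035 with no filter, 0.014 with the 2 groups alone, and -0.34 to 0.18 with 1 embryo left out. Rsl1d1 had 0.022 with DESeq2 and RLE factors, 0.015 with the replicate block and 0.011 with total counts. Without embryos 1 and 2, Las1l had 0.34 and Sdad1 0.19. In parthenotes Ddx51 had -0.032 with the block and -0.0026 with upper-quartile factors, Gnl3l 0.0014 with RLE factors and 0.049 with total counts, and Nsa2 -0.022 with upper-quartile factors. With RLE factors the median of all genes was 0.41, -0.27 and 0.38 (0.19, -0.64 and 0.18 before) in the C57BL/6 x JF1/Ms, JF1/Ms x C57BL/6 and parthenote comparisons, while the members' medians were -0.76, -2.66 and -0.67. Genes lower and higher over the whole table went from 3213 and 4500 to 2395 and 6117, from 4900 and 3582 to 3811 and 4610, and from 5306 and 7106 to 4210 and 8915. The causes were not tested. Small groups, 4 and 3 embryos in the JF1/Ms x C57BL/6 cross, and members at 0 counts limit what can be told there.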

Other observations

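The 4 libraries left out of the comparisons had summed member levels, as CPM of total counts without TMM scaling, of 1528 CPM (C57BL/6 x JF1/Ms, labelled dead, 11 members at 0), 2110 and 5521 CPM (C57BL/6 x JF1/Ms, low quality) and 8761 CPM (JF1/Ms x C57BL/6 2PN, low quality, 22 members at 0). The last had 4680 counts in all, so few members could be read there. On the same scale the 2PN embryos compared ran from 4175 to 11656 CPM in the C57BL/6 x JF1/Ms cross and from 1066 to 11637 CPM in the other. Among the 21 JF1/Ms x C57BL/6 2PN embryos that were compared, embryos 8 and 21 had the lowest sums, 1093 and 1113 CPM after TMM scaling, and embryo 21 also had the fewest counts, 533116.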
